A study of Rattus norvegicus with 12 samples.

Results

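The endothelial leukocyte adhesion molecules are the proteins by which the vessel wall slows, holds and passes white blood cells. The group was taken by gene symbol and held 8 genes: Sele, Selp, Icam1, Icam2, Vcam1, Pecam1, Cdh5 and Selplg. Array probes were joined to symbols through their RefSeq transcripts, which gave 14737 symbols in all and 11146 with a probe bright enough to test. Of the 8 genes, 7 had a probe and 6 had a probe that could be tested. Selp had 1 probe that was not well above background on any array, and no probe carried the symbol Selplg.

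Lung RNA of 12 male Sprague–Dawley rats, 8 to 12 weeks old by the labels, was hybridised to 12 single-colour Agilent arrays, 3 in each of 4 groups. The Control group received air or saline in place of the exposures. The CS+LPS group breathed cigarette smoke (CS) and received lipopolysaccharide (LPS), a bacterial cell wall component, into the trachea on days 5 and 19, and smoke exposure ended on day 30. The CS+LPS+NaHS group had the same exposure with injections of sodium hydrosulfide (NaHS), a donor of hydrogen sulfide, beforehand, and the CS+LPS+PPG group had it with propargylglycine (PPG), an inhibitor of the hydrogen sulfide-forming enzyme cystathionine gamma-lyase. The RNA came from the left upper lobe, so vessels, airways, alveoli and any blood left in the lobe were measured together. In such tissue fewer cells of a type and less RNA per cell cannot be told apart. No group received NaHS or PPG without smoke and LPS.

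White cells leave the blood in steps. Selectins on activated endothelium, E-selectin (Sele) and P-selectin (Selp), catch and roll them through carbohydrate-bearing ligands such as PSGL-1 (Selplg), which white cells carry. Integrins on the white cell then bind immunoglobulin-family receptors on the vessel, ICAM-1, ICAM-2 and VCAM-1, and the cells pass between endothelial cells at junctions built from PECAM-1 and VE-cadherin (Cdh5). Sele, Icam1 and Vcam1 are known targets of NF-kappaB, the transcription factor that LPS, TNF and IL-1 activate in endothelium, while Icam2, Pecam1 and Cdh5 are made by resting endothelium.

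Windows around the annotated starts of the 3 inducible genes are shown. Sele rose in these lungs, and Icam1 and Vcam1 did not pass the test. The sequences are from RefSeq on the rat build GRCr8 and run from 250 bases before to 50 bases after the annotated gene start, 5′ to 3′ on the gene's strand. Capitals mark matches on either strand to 3 motifs: the 10-letter NF-kappaB consensus, the shorter kappaB-like string GGAAATTCC, and TATAAA. The table of promoters held 3 of the 8 genes.
Sele, chr13:78936264-78936563, plus strand: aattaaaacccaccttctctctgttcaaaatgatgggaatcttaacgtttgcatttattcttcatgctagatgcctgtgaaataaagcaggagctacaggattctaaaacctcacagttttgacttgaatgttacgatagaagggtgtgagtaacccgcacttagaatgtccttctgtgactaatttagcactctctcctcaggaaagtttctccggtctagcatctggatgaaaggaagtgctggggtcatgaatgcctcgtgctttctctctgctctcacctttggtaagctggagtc
Icam1, chr8:27829595-27829894, plus strand: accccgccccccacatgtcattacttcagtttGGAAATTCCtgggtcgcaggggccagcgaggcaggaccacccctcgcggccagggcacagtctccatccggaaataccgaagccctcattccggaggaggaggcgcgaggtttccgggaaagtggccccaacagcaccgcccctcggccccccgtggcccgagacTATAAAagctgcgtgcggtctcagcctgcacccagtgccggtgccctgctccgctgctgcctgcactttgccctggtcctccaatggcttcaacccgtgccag
Vcam1, chr2:206742734-206743033, minus strand: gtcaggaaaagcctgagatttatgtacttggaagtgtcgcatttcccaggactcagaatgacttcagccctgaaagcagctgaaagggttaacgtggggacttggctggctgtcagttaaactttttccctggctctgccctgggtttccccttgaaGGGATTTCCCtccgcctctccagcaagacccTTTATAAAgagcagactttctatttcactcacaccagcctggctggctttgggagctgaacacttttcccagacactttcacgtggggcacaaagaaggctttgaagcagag
In Icam1, GGAAATTCC began 218 bases and TATAAA 53 bases before the start. In Vcam1, the NF-kappaB consensus began 93 bases before the start, where the same letters matched on both strands, and TATAAA began 60 bases before it, overlapping a match on the other strand that began 62 bases before it. No match to the 3 motifs lay in the Sele window. There the annotated start falls on the letters atg, with which coding sequences begin, so the window may lie downstream of the promoter. Whether it holds the Sele promoter was not tested, and the missing matches say nothing about kappaB sites or a TATA box of Sele. Among all 33469 promoter windows of this length, 7.51% held the NF-kappaB consensus, 0.332% held GGAAATTCC and 14.2% held TATAAA. The matches describe the sequence, and binding was not measured.

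Signals are given on the log2 scale, after each array was set to the same 75th percentile, so a step of 1 is a 2-fold difference. A gene is said to have risen or fallen where the fold change between groups was at least 2 and limma's p was under 0.05. The study's methods used these thresholds with a t-test, and limma's test stands in its place here. The p adjusted over all 21239 tested probes (Benjamini-Hochberg) is given beside each difference. Brightness was not compared between probes of different genes. The 12 arrays lay on 2 slides: slide 1 carried control replicates 1 and 2 and all NaHS and PPG arrays, and slide 2 carried control replicate 3 and all CS+LPS arrays. The CS+LPS group and slide 2 can therefore be separated only through control replicate 3, which was the dimmest array before scaling and correlated with the others at r = 0.936 to 0.956, where other pairs of arrays reached 0.992. Between 66.0% and 75.5% of the probes on an array were well above background. All 9 epithelial markers and 15 of 20 endothelial markers, the tested ones including the surfactant gene Sftpc and the vessel gene Plvap, could be measured. Vwf and Ackr1, 2 markers of larger vessels, had no probe with their symbol.

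Sele, which is made by activated endothelium, was the member that rose in all 3 exposed groups. Its signal in the controls was 4.69, 5.01 and 4.61, none of them well above background. In the CS+LPS lungs it was 6.02, 7.17 and 6.55, and all 3 were well above background. In the CS+LPS+NaHS lungs it was 6.62, 7.23 and 7.43, and in the CS+LPS+PPG lungs 7.51, 6.78 and 7.02. Every exposed array lay above every control array, and the 3 exposed groups overlapped each other. Of all probes, 12.9%, 12.7% and 18.7% lay higher than Control without overlap in CS+LPS, NaHS and PPG.

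Sele entered the test only through the exposed groups, where it was well above background, so it had to differ from Control to be tested. The controls were not well above background, so the folds are estimates against a level near the floor, under the scaling used here. Sele was an estimated 3.51-fold higher in CS+LPS than in Control, by 1.81 ± 0.31 (SE) on the log2 scale (95% interval 1.13 to 2.49, limma adjusted p = 0.0247). The estimate was 5.01-fold in CS+LPS+NaHS (2.32, 95% interval 1.64 to 3.01, adjusted p = 0.0360). It was 5.05-fold in CS+LPS+PPG (2.34, 95% interval 1.65 to 3.02, adjusted p = 0.0154). Of all probes, 1.65% rose by the same rule in CS+LPS, 1.3% in CS+LPS+NaHS and 2.32% in CS+LPS+PPG. The 3 comparisons share the same controls. Without control replicate 3 the differences were 1.73, 2.24 and 2.26, and all 3 still passed the rule, with an adjusted p of 0.0483, 0.0620 and 0.0223. With normexp background correction the CS+LPS difference of Sele was 0.85 and no longer passed, and those with NaHS and PPG were 1.15 and 1.18 and passed.

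Against CS+LPS, Sele did not pass the rule with either drug. The difference was 0.51 with NaHS (95% interval -0.17 to 1.20, limma adjusted p = 0.70) and 0.53 with PPG (95% interval -0.16 to 1.21, adjusted p = 0.60). Both intervals, from the fit without slide, reach above a 2-fold rise and stop short of a 2-fold fall. The CS+LPS arrays were on slide 2 and those of both drugs on slide 1, so slide and treatment cannot be told apart in these differences. PPG and NaHS differed by 0.01 (95% interval -0.67 to 0.69). A second Sele probe was well above background on only 3 arrays and was not tested. It read 2.44, 3.04 and 3.11 in the controls, and 3.69, 4.19 and 4.00 in CS+LPS, with no overlap. It read 3.93, 5.31 and 4.72 with NaHS and 4.95, 2.85 and 4.37 with PPG, where 1 PPG array fell within the control range.

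**Figure D1:**
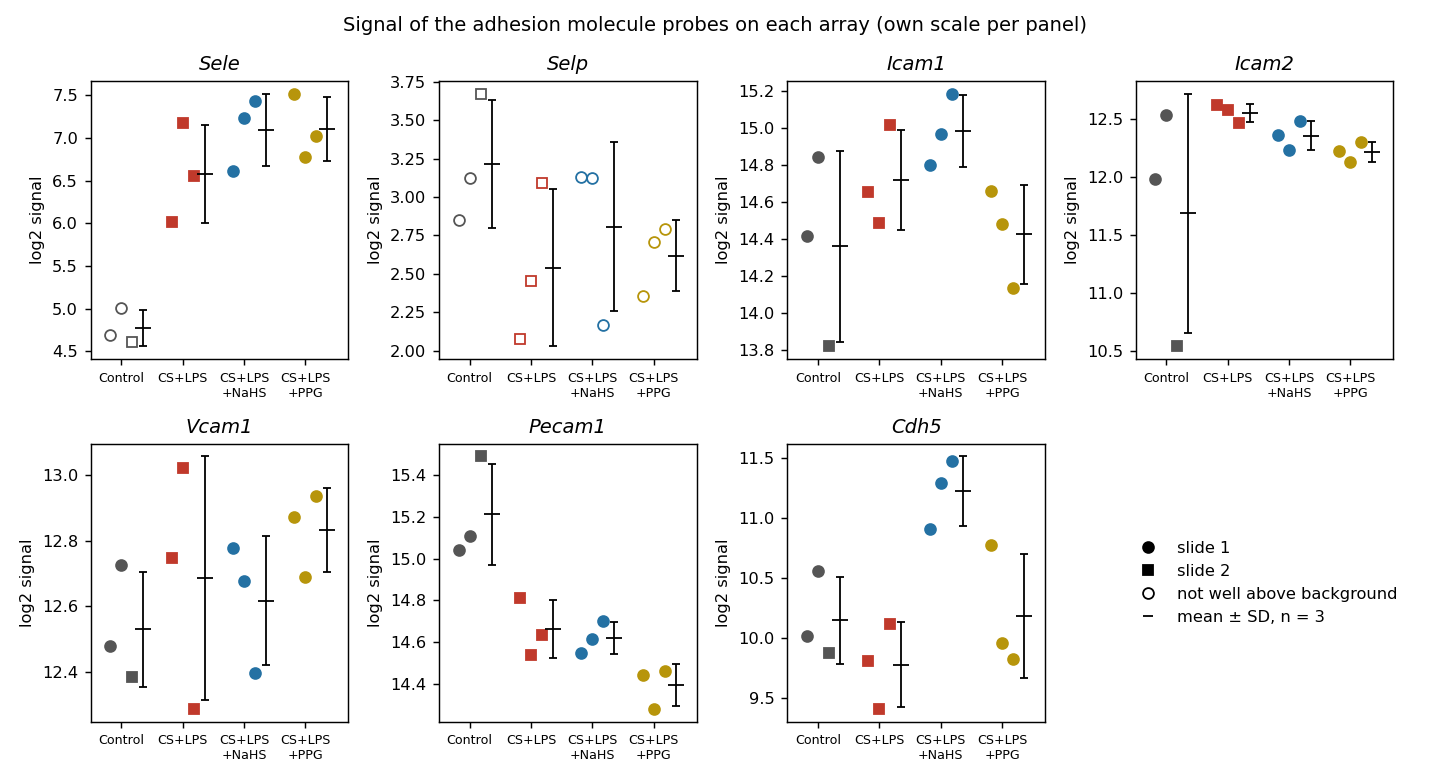
Log2 signal (y axis, own scale in each panel) of the 7 members with a probe, by group (x axis), with 1 point per array, circles for slide 1, squares for slide 2, open symbols where the probe was not well above background, and bars for the mean ± SD of 3 arrays. Sele separates all 9 exposed arrays from the 3 controls, Pecam1 lies lower in all 9, Cdh5 is highest in the 3 NaHS arrays, and control replicate 3, the square among the controls, holds the lowest Icam1 and Icam2 values.

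Selp, the P-selectin that endothelium and platelets keep in granules, gave no measurable level. Its probe read 2.85, 3.12 and 3.67 in the controls and between 2.08 and 3.13 in the exposed lungs, all not well above background, so no fold is given. Selplg had no probe and is not described.

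Icam1, the receptor of the integrins LFA-1 and Mac-1, was bright in every lung and passed the rule in none of the 6 comparisons as fitted without slide. Its signal was 14.42, 14.84 and 13.82 in the controls and 14.65, 14.49 and 15.01 in CS+LPS. It was 14.80, 14.97 and 15.19 with NaHS and 14.66, 14.48 and 14.13 with PPG. The CS+LPS, NaHS and PPG arrays each overlapped the controls, whose lowest value was control replicate 3. All 3 PPG arrays lay below all 3 NaHS arrays, as 12% of all probes did.

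Against Control, Icam1 differed by 0.36 in CS+LPS (95% interval -0.20 to 0.92, limma adjusted p = 0.376), by 0.62 with NaHS (adjusted p = 0.259) and by 0.06 with PPG (95% interval -0.50 to 0.63). PPG against NaHS differed by -0.56 (limma adjusted p = 0.572). Against CS+LPS, NaHS differed by 0.27 and PPG by -0.29. With slide in the model, CS+LPS differed from Control by 0.90 (limma adjusted p = 0.0251), and PPG fell against CS+LPS by 1.11 (adjusted p = 0.0468), values that rest on control replicate 3. Without control replicate 3 the CS+LPS difference was 0.09 and the NaHS difference 0.35.

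Vcam1, which binds the integrin VLA-4 of monocytes and lymphocytes, passed the rule in none of the 6 comparisons. Its signal was 12.48, 12.72 and 12.38 in the controls and 12.75, 13.02 and 12.29 in CS+LPS. It was 12.78, 12.68 and 12.40 with NaHS and 12.87, 12.69 and 12.94 with PPG. All groups overlapped. The differences from Control were 0.16 (95% interval -0.27 to 0.58), 0.09 (-0.34 to 0.51) and 0.30 (-0.12 to 0.73) in CS+LPS, NaHS and PPG, with limma adjusted p of 0.611, 0.832 and 0.311. A 2-fold change of Vcam1 in either direction lies outside each of these intervals, which come from the fit without slide.

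Icam2, a second LFA-1 ligand that resting endothelium and platelets carry, differed mainly through 1 control array. Its signal was 11.98, 12.54 and 10.54 in the controls, 12.62, 12.58 and 12.46 in CS+LPS, 12.36, 12.23 and 12.48 with NaHS, and 12.23, 12.13 and 12.30 with PPG. The value 10.54 was control replicate 3, and the other 11 arrays lay within 11.98 to 12.62. CS+LPS exceeded Control by 0.87 (limma adjusted p = 0.186), short of 2-fold, and by 0.29 without control replicate 3. Set against control replicate 3 alone, its only neighbour on slide 2, the difference was 2.02. PPG lay below CS+LPS on every array, as 8.41% of all probes did, by 0.34 (limma adjusted p = 0.796). This pair of groups was on different slides, so slide and treatment cannot be told apart there.

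Pecam1, the junction molecule that white cells bind as they cross the vessel wall, was lower in every exposed lung, by less than 2-fold. Its signal was 15.04, 15.11 and 15.49 in the controls and 14.81, 14.54 and 14.64 in CS+LPS. It was 14.55, 14.61 and 14.70 with NaHS and 14.44, 14.28 and 14.46 with PPG. All 9 exposed arrays lay below all 3 controls, and the PPG arrays also lay below all CS+LPS and NaHS arrays, as 8.41% and 12% of all probes did. Groups that did not overlap with the first lower were found for 12.4%, 12.1% and 14.5% of all probes in CS+LPS, NaHS and PPG against Control.

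The Pecam1 difference from Control was -0.55 ± 0.15 (SE) in CS+LPS (limma adjusted p = 0.0746), -0.59 with NaHS (adjusted p = 0.140) and -0.82 with PPG (adjusted p = 0.0229). With PPG, where 2.03% of all probes were lower at an adjusted p under 0.05, the difference passed the adjusted threshold without reaching 2-fold. Without control replicate 3, the highest Pecam1 value of all, the differences were -0.41, -0.45 and -0.68, and the PPG value kept an adjusted p of 0.0272. The adjusted p with PPG rose to between 0.0732 and 0.0808 when any 1 PPG array was left out. Between the exposed groups, PPG differed from CS+LPS by -0.27 and from NaHS by -0.23 (limma adjusted p = 0.565 and 0.666). The difference from CS+LPS crosses slides and ran from -0.36 to 0.15 over the alternatives.

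Cdh5, the VE-cadherin that holds neighbouring endothelial cells together, was the member that separated the NaHS lungs. Its signal was 10.01, 10.56 and 9.87 in the controls and 9.81, 9.40 and 10.11 in CS+LPS. It was 10.91, 11.29 and 11.47 with NaHS and 10.77, 9.95 and 9.82 with PPG. All 3 NaHS arrays lay above all 9 others, and Control, CS+LPS and PPG overlapped. Of all probes, 12.5% lay higher with NaHS than in CS+LPS without overlap, 12.7% than in Control and 12% than with PPG. The share of probes above all 9 others at once was not computed.

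Cdh5 rose 2.73-fold with NaHS against CS+LPS, by 1.45 ± 0.29 (SE) (limma adjusted p = 0.0610), in a comparison where 1.49% of all probes rose. It rose 2.11-fold with NaHS against Control (1.08, limma adjusted p = 0.147), and it fell with PPG against NaHS by 1.04 (adjusted p = 0.563), where 0.202% of all probes fell. None of these passed the adjusted threshold, although NaHS against CS+LPS had an adjusted p of 0.0376 when control replicate 3 was left out of the fit. CS+LPS differed from Control by -0.37 (95% interval -1.01 to 0.27), PPG from Control by 0.04 (-0.60 to 0.68) and PPG from CS+LPS by 0.41 (-0.23 to 1.05).

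The Cdh5 values of NaHS and PPG came from slide 1 and those of CS+LPS from slide 2. With slide in the model, NaHS against CS+LPS was 1.03 (limma adjusted p = 0.168) and no longer passed, a value that rests on control replicate 3. NaHS against Control was 0.94 without control replicate 3, which is also the value within slide 1, and 0.95 without NaHS replicate 3, both short of 2-fold. PPG against NaHS, both on slide 1, was -0.92 without NaHS replicate 3, -0.93 without PPG replicate 2 and -0.86 without PPG replicate 3.

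**Figure D2:**
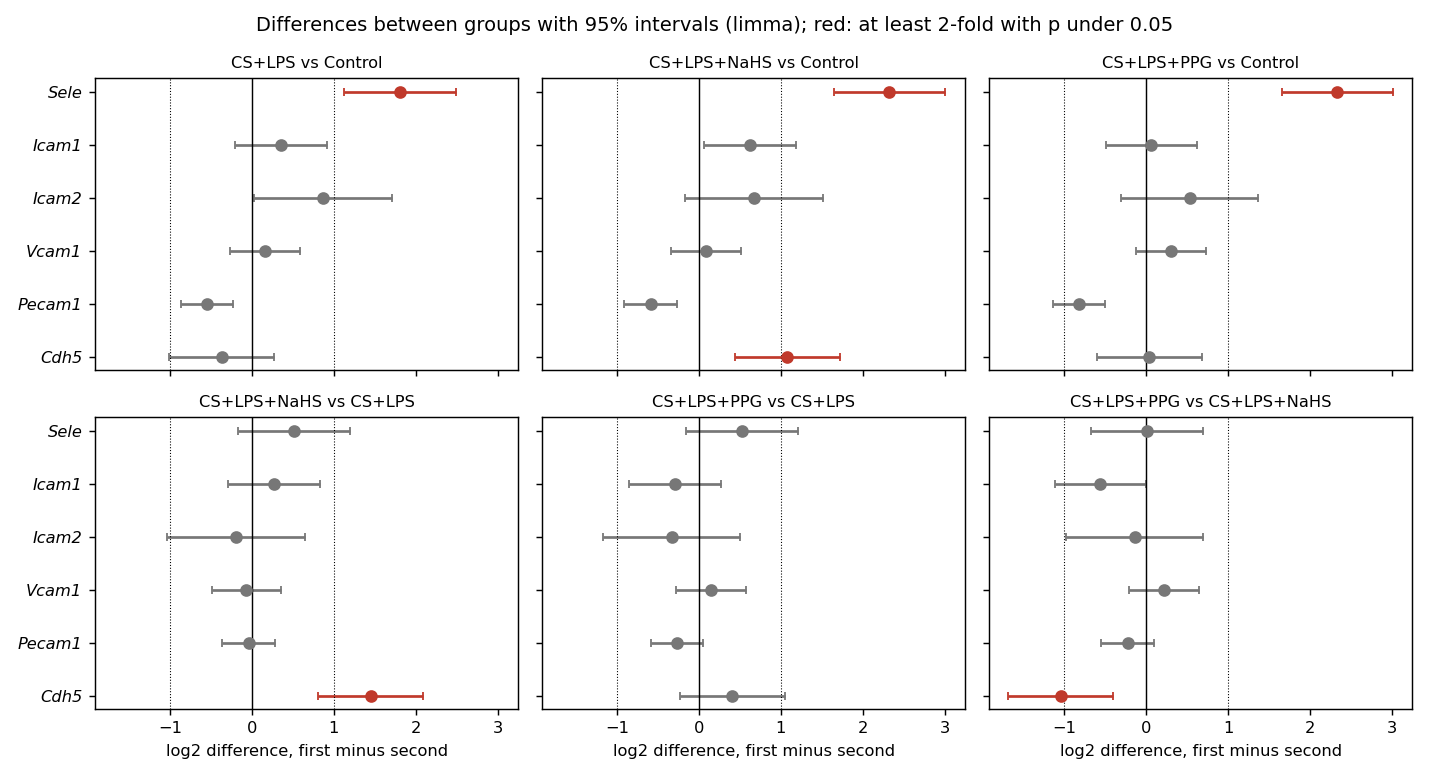
Log2 difference between groups (x axis, first minus second named) for the 6 tested members (y axis) in the 6 comparisons, with 95% limma intervals, dotted lines at 2-fold and red where the fold was at least 2 with p under 0.05. Sele is red in the 3 comparisons with Control and Cdh5 in the 3 that set NaHS against another group, at 1.08 and 1.45 with NaHS higher and -1.04 with PPG lower.

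Counted together, 1 of the 6 tested members rose in CS+LPS against Control (Sele), 2 with NaHS (Sele and Cdh5) and 1 with PPG (Sele). Of all probes, 1.65%, 1.3% and 2.32% rose. Sele had to differ from Control to be tested, so its part in these counts was not free to come out otherwise. No member fell, where 2.91%, 1.37% and 2.06% of all probes did. The medians of the 6 differences were 0.26, 0.65 and 0.18, beside -0.04, 0.00 and -0.01 over all probes, with members on both sides of 0 in each. Without control replicate 3 the members' medians were 0.09, 0.22 and -0.07, so that the one with PPG changed sign, and with slide in the model that of CS+LPS was 0.60. Against CS+LPS, 1 member rose with NaHS (Cdh5), where 1.49% of all probes rose. With PPG 0 of 6 changed by limma, where 2.05% of all probes did. At an unadjusted p under 0.05 there were 0 members by limma, beside 10.5% of all probes, and 1 by the methods' t-test. PPG against NaHS lay lower without overlap for 3 of the 6 members, Icam1, Pecam1 and Cdh5, where 12% of all probes did so. The labels call the arrays of a group replicates, and the p-values measure the spread between them.

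Genes of the counter-receptor list passed the rule only in CS+LPS against Control, as fitted without slide. The list also held genes that are not confined to white cells, among them Podxl, Itgb1 and Glg1. Its counts and medians are therefore not a measure of white cells alone. Of 13 genes listed, 11 were tested, and 2 rose in CS+LPS, where 1.65% of all probes rose. Itgb2, the common chain of LFA-1 and Mac-1, rose by 1.02 (limma adjusted p = 0.108), and Itgb7, a partner of the alpha 4 chain, by 1.08 (adjusted p = 0.0810). Itgb2 read 11.65, 12.44 and 10.82 in the controls and 12.59, 12.59 and 12.77 in CS+LPS. The controls reached up to 12.44 and control replicate 3 was the lowest, and without it the Itgb2 difference was 0.61 and that of Itgb7 0.77, neither of them at 2-fold. With slide in the model, which rests on that same array, they were 1.83 and 1.69 and 4 of the 11 rose. None rose with NaHS or PPG, where 4 and 5 of the 11 had an unadjusted limma p under 0.05, beside 17.1% and 29.3% of all probes. In CS+LPS, NaHS and PPG, 8, 10 and 7 of the 11 lay above 0. The list's median difference was 0.58, 0.41 and 0.43 in CS+LPS, NaHS and PPG, and 0.28, 0.17 and 0.18 without control replicate 3. Cd44, a ligand of E-selectin when suitably glycosylated, differed by 0.67, 0.30 and 0.43.

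The partners of Pecam1 and Cdh5 at the junction lay below Control more often than above it in CS+LPS and PPG, mostly by less than 2-fold. Of 16 listed genes 13 were tested, and 1 changed against Control: Mcam, a homophilic adhesion molecule of the endothelial junction, fell with PPG by 1.02 (limma adjusted p = 0.0342). Mcam read 14.49, 14.18 and 14.88 in the controls and 13.69, 13.70 and 13.11 with PPG, with no overlap, and the difference was -0.84 without control replicate 3. Cldn5, the main claudin of endothelial tight junctions, differed by -0.36, -0.28 and -0.32 in CS+LPS, NaHS and PPG. Jup, the plakoglobin that binds VE-cadherin inside the cell, differed by 0.06, 0.19 and -0.23. The list's medians were -0.12, 0.03 and -0.27, with 4, 7 and 2 of the 13 above 0. Without control replicate 3 they were -0.25, -0.08 and -0.29, with 1, 4 and 2 above 0. None of the list's genes changed with NaHS against CS+LPS, the comparison in which Cdh5 rose. There 2 of 13 had an unadjusted limma p under 0.05, beside 9.67% of all probes. With slide in the model, which rests on control replicate 3, 1 of the 13 rose in that comparison.

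The enzymes that build selectin ligands did not pass the rule in any comparison as fitted without slide. With slide in the model, which rests on control replicate 3, 1 of the 9 tested rose in CS+LPS against Control. Of 11 listed genes 9 were tested, and 2, 1 and 1 of them had an unadjusted limma p under 0.05 in CS+LPS, NaHS and PPG against Control, beside 25.2%, 17.1% and 29.3% of all probes. Fut4, which adds the fucose of the ligand, differed by 0.00, 0.21 and 0.16, and St3gal4, which adds its sialic acid, by -0.12, -0.19 and 0.05. The list's medians were -0.11, 0.03 and 0.09.

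The genes that start or mark NF-kappaB activity in endothelium were mixed. Of 21 listed genes 15 were tested. In CS+LPS 2 rose, the monocyte attractant Ccl2 by 1.33 (limma adjusted p = 0.146) and the pentraxin Ptx3 by 1.10 (adjusted p = 0.0747). A further 1 of the 15 was higher there at a limma adjusted p under 0.05 without reaching 2-fold, beside 0.815% of all probes. With PPG 3 rose, Ccl2 by 1.85 (adjusted p = 0.0598), Ptx3 by 1.21 (adjusted p = 0.0465) and Tnf by 1.03 (adjusted p = 0.0472), and Il1a fell by 1.06 (adjusted p = 0.0857). With NaHS none passed the rule, while 3 of 15 had an unadjusted limma p under 0.05, beside 17.1% of all probes. Tnf and Ptx3 lay above all 3 controls on every exposed array, those with NaHS included. Of all probes, 12.9%, 12.7% and 18.7% lay higher than Control without overlap in CS+LPS, NaHS and PPG. Without control replicate 3, Tnf with PPG (0.97) and Ccl2 in CS+LPS (1.30) no longer passed, and with slide in the model Ptx3 in CS+LPS (0.98) and Ccl2 in CS+LPS (1.38) did not. The list's medians were 0.36, 0.19 and 0.13, and 0.13, -0.08 and -0.06 without control replicate 3.

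Ccl2 read 7.53, 7.31 and 7.34 in the controls, 8.71, 9.06 and 8.39 in CS+LPS, 8.72, 8.18 and 7.04 with NaHS, and 9.42, 8.11 and 10.22 with PPG. The CS+LPS and PPG arrays lay above the controls and the NaHS arrays overlapped them. Ccl2 was higher with PPG than with NaHS by 1.27 (limma adjusted p = 0.563). Nfkbia, the inhibitor that NF-kappaB itself induces, differed from Control by -0.36, -0.39 and -0.51, and Irf1 by 0.13, -0.02 and 0.13.

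Of the genes that restrain or shed adhesion molecules, 8 of 9 were tested. Mmp9, a matrix protease of neutrophils and macrophages, passed the rule in all 3 exposed groups, by 1.09, 1.12 and 1.01 (limma adjusted p = 0.153, 0.243 and 0.149). Its controls were not well above background, so Mmp9 entered the test only through the exposed groups and had to differ from Control. With controls under the lowest signal well above background on their array raised to it, the folds were 2.03, 2.07 and 1.91, the last short of 2-fold. Some NaHS and PPG arrays overlapped the controls, and without control replicate 3 the differences were 0.87, 0.90 and 0.79. Timp3, an inhibitor of metalloproteases and of the shedding enzyme ADAM17, fell in CS+LPS by 1.32 (adjusted p = 0.0783) and rose with NaHS against CS+LPS by 1.49 (adjusted p = 0.115). Timp3 read 11.50, 11.50 and 11.03 in the controls, 10.72, 9.32 and 10.02 in CS+LPS, 10.90, 12.10 and 11.53 with NaHS, and 10.79, 10.42 and 10.76 with PPG. CS+LPS lay below Control and NaHS without overlap. As for Cdh5, this comparison crosses slides, and with slide in the model the value was 1.02 and did not pass. Klf2, a flow-induced factor that keeps endothelium quiescent, differed by 0.03, 0.24 and -0.12, and Thbd, thrombomodulin, by -0.34, -0.22 and -0.36.

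Markers of endothelium itself overlapped between the groups in their summed signal. The summed signal of the 15 tested endothelial markers lay within 312235 to 380596 in the controls, within 307927 to 371180 in CS+LPS, within 362514 to 390269 with NaHS and within 298560 to 380336 with PPG. None rose against Control as fitted without slide, and with slide in the model 4 of the 15 rose in CS+LPS. Sox17, a factor of arterial endothelium, fell with PPG by 1.02 (limma adjusted p = 0.0208), from 6.99, 7.37 and 7.35 to 6.21, 6.39 and 6.05, and by 0.97 without control replicate 3. Tek, the angiopoietin receptor, was lower in CS+LPS by 0.77 (limma adjusted p = 0.0392), short of 2-fold, and was named after its value was seen, while Kdr, the main VEGF receptor, differed by 0.16, 0.18 and 0.16 in CS+LPS, NaHS and PPG. The list's medians were -0.08, 0.18 and 0.14. With NaHS against CS+LPS, in which Cdh5 rose by 1.45, 13 of the 15 markers were above 0, with a median of 0.10 and a highest difference of 0.54. These groups lay on different slides, and with slide in the model 5 of the 15 were above 0, with a median of -0.08, 1 rising and 4 falling.

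White cell markers were higher with exposure, beside the rise of Sele. All 8 pan-leukocyte markers lay above 0 in each comparison with Control, with medians of 0.87, 0.70 and 0.78, and 3, 1 and 2 of them rose in CS+LPS, NaHS and PPG. Their summed signal lay within 121635 to 183725 in the controls, within 200284 to 285715 in CS+LPS, within 205092 to 239097 with NaHS and within 234682 to 250907 with PPG, above the controls on all 9 exposed arrays. Control replicate 3 had the lowest sum, 121635. Without it the medians were 0.51, 0.31 and 0.48 and none of the 8 rose. With slide in the model, which sets CS+LPS against control replicate 3, 6 of the 8 rose in CS+LPS (median 1.39), and 4 fell with NaHS against CS+LPS (median -1.01). The part of these cells in the result for Sele was not tested.

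**Figure D3:**
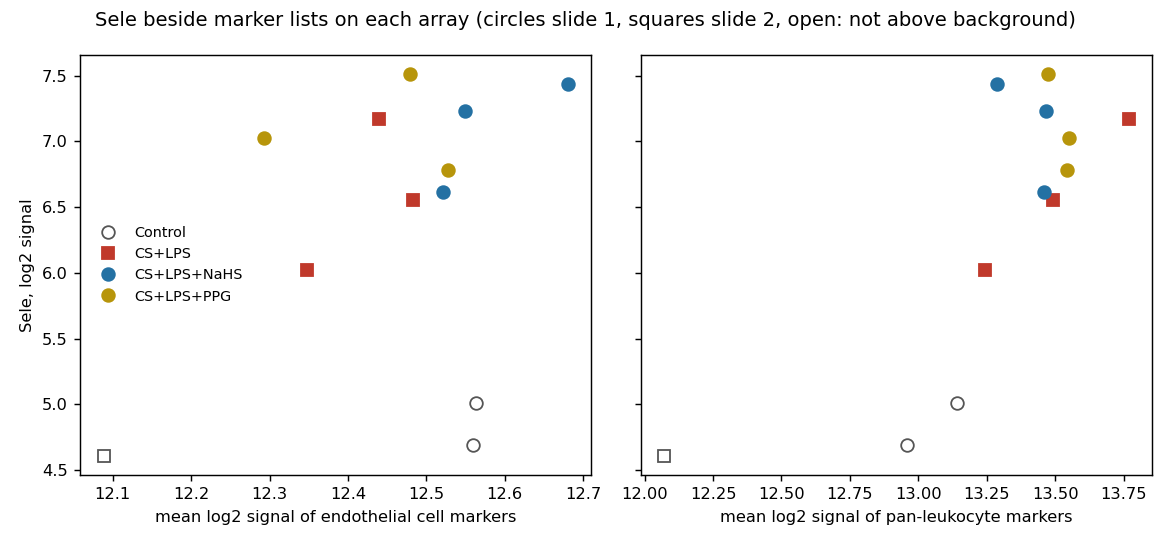
Log2 signal of Sele (y axis) against the mean log2 signal of the 15 tested endothelial markers and the 8 pan-leukocyte markers (x axes), with 1 point per array, coloured by group, circles for slide 1, squares for slide 2 and open symbols where Sele was not well above background. The endothelial mean of the controls, 12.09 in control replicate 3 and up to 12.56, spans that of all CS+LPS and PPG arrays, while the leukocyte mean of the controls, 12.07 to 13.14, lies below all exposed arrays, the lowest of which is 13.24.

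The more specific lists moved as follows. All 8 neutrophil markers lay above 0 in the 3 comparisons with Control, with medians of 0.75, 0.86 and 0.87. Without control replicate 3 this held for 7, 7 and 6 of the 8, with medians of 0.40, 0.43 and 0.50. Lcn2, lipocalin 2, which epithelium also makes, rose by 1.42, 1.48 and 1.77 (limma adjusted p = 0.0144, 0.0360 and 0.00712). It still rose without control replicate 3, by 1.47, 1.53 and 1.82. S100a8 and S100a9 rose with PPG, and neither passed without that array (0.90 and 0.99). Of 6 tested macrophage markers 2, 1 and 2 rose and 1, 0 and 0 fell. Cd68, a lysosomal protein of macrophages, rose by 1.39, 1.42 and 1.33, while Cd163, a scavenger receptor of tissue macrophages, fell in CS+LPS by 1.39 and differed by -1.22 with NaHS and -0.60 with PPG. The Cd163 value in CS+LPS was -1.34 and did not pass without control replicate 3. Cd79b, a B cell receptor chain, rose by 1.24, 1.22 and 1.08, the last being 0.89 and not passing without that array. All 6 T cell markers lay above 0, and 1, 0 and 4 of them rose, and none did without control replicate 3, where the CS+LPS median was 0.26 in place of 0.81. With slide in the model 5 of the 6 rose in CS+LPS. Of 4 tested platelet markers, which matter for Selp and Icam2, 0, 1 and 0 rose, the 1 being Ppbp with NaHS (1.02, and 0.91 without control replicate 3, where it did not pass). Of 9 epithelial markers 1 changed, Foxj1, which fell with NaHS by 1.10 and by 0.43 without control replicate 3.

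Fat and muscle transcripts varied widely between arrays. The summed signal of 5 muscle markers ran from 717 to 69493 in the controls, from 3598 to 36298 after CS+LPS, between 727 and 37804 for NaHS and from 27754 to 49071 with PPG. Of 3 tested fat markers, Cfd rose with PPG (1.11), and Cidec fell in CS+LPS by 1.13. Adipoq, adiponectin, read 3.68, 4.32 and 11.61 in the controls and 10.64, 7.91 and 10.01 with PPG. It was well above background on all 3 PPG arrays and on only 1 of 3 arrays in each of the other groups, so no fold is given. The part of fat and muscle tissue in the members' values was not tested.

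Of the 153 listed genes, not all of them tested, 16, 7 and 20 changed against Control in CS+LPS, NaHS and PPG, beside 4.56%, 2.67% and 4.38% of all probes. Without control replicate 3, 6, 3 and 6 of those same genes still passed, a recount that could only fall. Other listed genes came to pass without that array. Among muscle markers, 2 of 5 rose in CS+LPS and 4 of 5 with PPG, in place of 0, and 2 of 4 B cell markers rose in CS+LPS in place of 1.

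**Figure D4:**
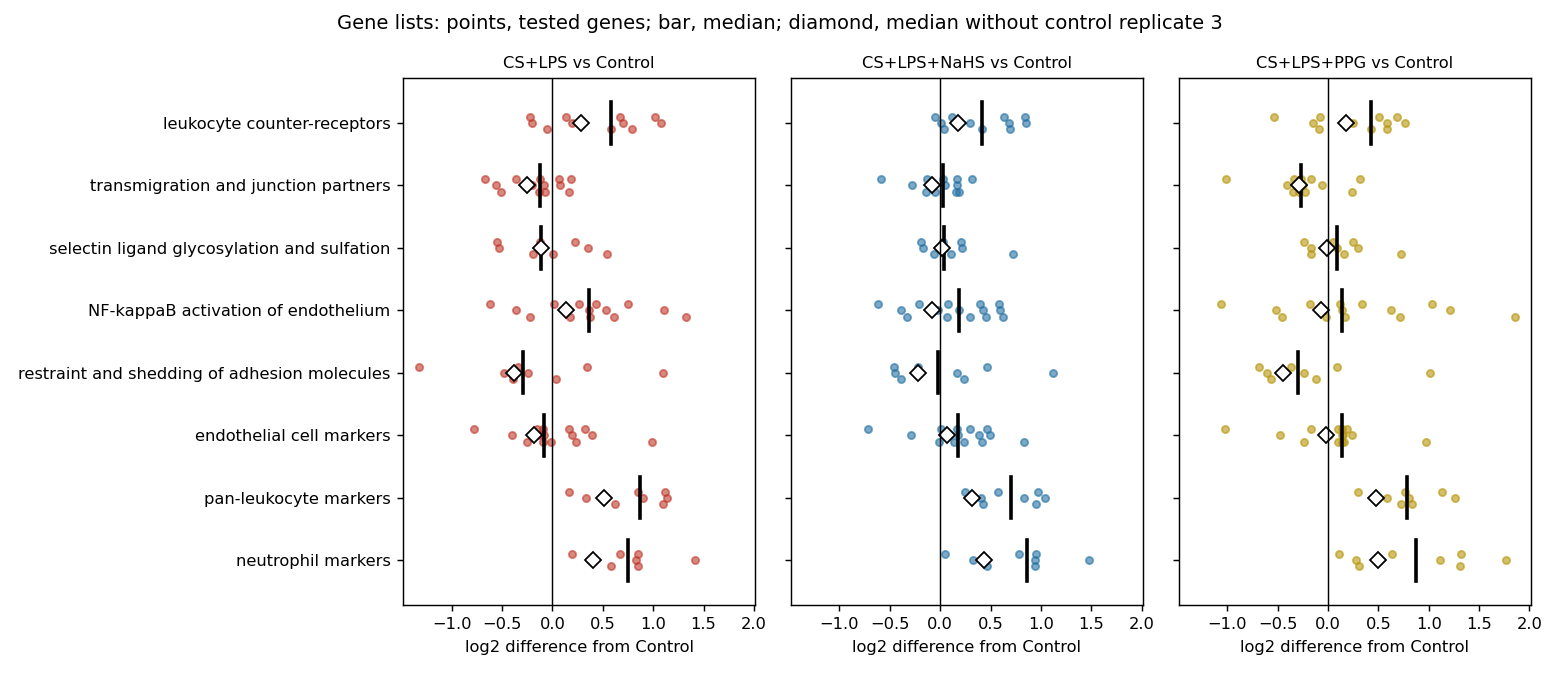
Log2 difference from Control (x axis) of each tested gene (points) in 8 gene lists (y axis) in the 3 exposed groups, with a bar at each list's median and an open diamond at the median without control replicate 3. In the pan-leukocyte and neutrophil lists all points lie right of 0. Their medians move toward 0 without that array, from 0.87 to 0.51 for the pan-leukocyte list in CS+LPS. The medians of the endothelial list lie between -0.08 and 0.18, and those of the junction list between -0.27 and 0.03.

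The genes whose pattern was most like each member's were found by Pearson r of log2 signal over the 12 arrays among 13153 probes with a symbol. These values describe 12 arrays that share groups and slides, and carry no p. Sele was most like Slamf8 (r = 0.982, rho = 0.923), a receptor of myeloid cells, then Stap1 (r = 0.932) and P2ry10b (r = 0.927). Pecam1 was most like Notch4, an endothelial Notch receptor (r = 0.969), then Lrrc24 and Cldn23 (r = 0.959 and 0.957). Cdh5 was most like Nup98 (r = 0.964), Prkce (r = 0.956) and Sec31a (r = 0.940).

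Icam1 was most like Vgll4 (r = 0.960), followed by Psme3 and Ext2 (both r = 0.946). Icam2 was most like Psmc4 (r = 0.978, rho = 0.769), Myl12b (r = 0.973) and Donson (r = 0.972), and control replicate 3 lay far below the other 11 arrays in Icam2. Vcam1 had the least similar neighbours, Ndufb7 (r = 0.909), Gins2 (r = 0.881) and Naa50 (r = 0.871).

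**Figure D5:**
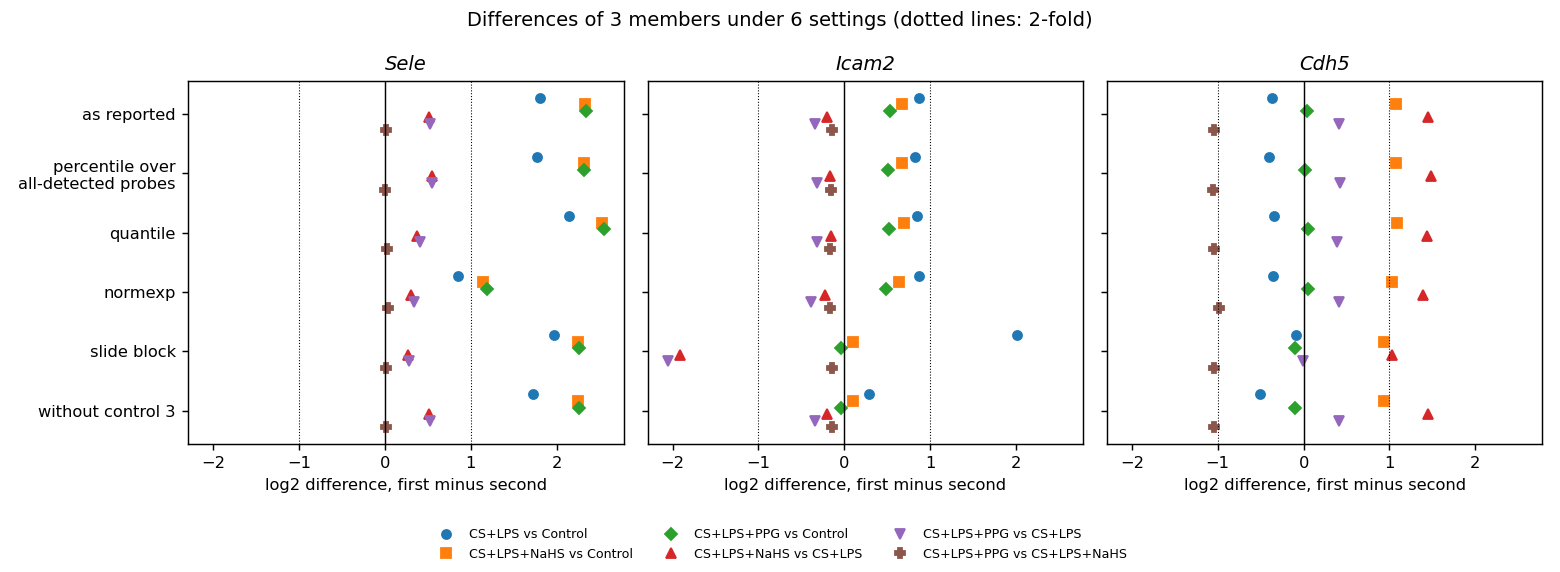
Log2 difference (x axis, first minus second named) of Sele, Icam2 and Cdh5 in the 6 comparisons (symbols) under 6 settings (y axis), with dotted lines at 2-fold. Sele stays above 0 against Control throughout and falls to 0.85 in CS+LPS under normexp, Icam2 moves from 0.87 to 2.02 in CS+LPS with slide in the model and to 0.29 without control replicate 3, and Cdh5 with NaHS against CS+LPS moves from 1.45 to 1.03 with slide in the model.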

How the data were processed

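Total RNA of 12 rat lungs was labelled with Cy3 and hybridised to Agilent arrays, and the authors extracted the scans with Agilent Feature Extraction 10.7, per their processing notes. The deposited files give the processed intensity of each spot, from which the background was already subtracted. Their depth is not a count, and the precision is limited by 3 arrays per group. Separate deposited lists hold fold changes, p-values and normalized values of the authors' own comparisons and were not used.

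Control and outlier spots were left out, the intensity was put on the log2 scale, each array's 75th percentile was aligned, and spots of a probe were averaged. Of 30367 probes, 21239 exceeded background clearly on every array of at least 1 group and were tested with limma 3.58.1 in R 4.3.3 over 12 arrays and 6 comparisons. A symbol was found for 17514 probes. A gene was read from its most intense tested probe. Named genes were the members, called genes of 15 lists, up to 4 of the most intense others per list, and the 3 most correlated genes per member. The members and lists were chosen with earlier results of these data known. The fit was tested on simulated data. Alternatives varied the scaling, background, filter, slide, replicate block, test and arrays.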

Additional observations from a re-analysis of the deposited data

How the results depend on the processing

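The direction of Sele against Control was the same under all alternatives that could test it, with differences of 0.85 to 2.15 for CS+LPS, of 1.15 to 2.56 for NaHS and of 1.18 to 2.55 for PPG. In CS+LPS, 0 members passed with normexp correction, which used the median signal because no mean signal was held, where Sele was 0.85, and 0 passed when probes had to be above background on all 12 arrays, which removes Sele from the test. With NaHS and with PPG that filter left 1 and 0 members. PPG against NaHS gave 0 under normexp. With slide as a block, 2 members passed in CS+LPS (Sele and Icam2), 1 with NaHS against Control (Sele), 1 with NaHS against CS+LPS (Icam2 at -1.92 in place of Cdh5) and 2 with PPG against CS+LPS (Icam1 at -1.11 and Icam2 at -2.06), all of the Icam values resting on control replicate 3. Within a slide, 2 and 1 members passed in CS+LPS and with NaHS, the first against a single control array that is assumed to vary like the other groups. Leaving out 1 array gave 1 to 2 members for CS+LPS, 1 to 3 for NaHS and 1 to 1 for PPG against Control, 1 to 1 and 0 to 0 with NaHS and PPG against CS+LPS, and 0 to 1 for PPG against NaHS. Icam2 passed in CS+LPS without control replicate 1 (1.02) or 2 (1.29), and with NaHS without control replicate 2 (1.10).

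With the replicate block the counts of members called were unchanged, and the adjusted p of Sele became 0.0507, 0.0968 and 0.0440 and that of Pecam1 with PPG 0.0527. Arrays of the same number did not deviate together (r = -0.309 to 0.139, 2 of 18 pairs over 0.1). The methods' t-test gave Sele an adjusted p of 0.348, 0.217 and 0.130 and Pecam1 with PPG 0.181. The share of called probes that rose in CS+LPS was 36.2%, 61.6% after quantile normalization and 53.6% after normexp. Over the alternatives that kept all arrays, the probes called numbered 375 to 4831 against 969 for CS+LPS, 212 to 1258 against 567 for NaHS and 414 to 1311 against 930 for PPG, each versus Control. They numbered 74 to 4224 against 361 for NaHS and 104 to 4120 against 435 for PPG, each versus CS+LPS, and 55 to 277 against 111 for PPG versus NaHS. Lists and medians without control replicate 3 or with slide in the model were a choice made after seeing the data.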
